A study of Homo sapiens with 6 samples.

Results

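The genes described are 39 members of the amino acid and endoplasmic reticulum (ER) stress responses, chosen by name from known function. They were chosen with earlier results of these data known. The array held a probe set naming that gene alone for 38 of them, of 19775 genes with such a probe set in all; SYVN1, an ER ubiquitin ligase, had none. Each gene was read from its brightest probe set, the one with the highest mean log2 intensity over the 6 arrays. The samples were 6 RNA samples of U937T:PLZF-RARa, a single engineered derivative of the human monocytic line U937, hybridised 1 per array. In this line the fusion protein PLZF-RARα, a transcription factor fusion of a rare acute promyelocytic leukaemia, is held off by tetracycline. The 3 uninduced samples were taken at 48 h and the growth medium described for the line holds tetracycline at 0.1 ug/ml. The 3 induced samples were taken at 48 h after cells had been washed 3 times with PBS and moved to the same medium without tetracycline. That medium was RPMI-1640 with 10% FBS, puromycin at 0.5 ug/ml and G418 at 1 mg/ml. Removal of tetracycline, the washes and the fusion protein go together in this design and cannot be told apart. The labels do not say whether replicates were separate cultures, so a p-value here reflects the spread among 3 samples per group, which may be technical in part or in whole.

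The integrated stress response begins with kinases that phosphorylate the translation factor eIF2α when amino acids run short, when unfolded protein builds up in the ER or when haem or viral RNA signals arise. General protein synthesis then slows while ATF4, a transcription factor, is translated more, and ATF4 drives genes that make, import and attach amino acids to tRNA. The unfolded protein response of the ER runs through EIF2AK3, which feeds into ATF4, and through ERN1 with XBP1 and through ATF6, which drive chaperones and the removal of misfolded protein. Growing leukaemia cells are known to need both a supply of amino acids and a working ER.

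Arrays of 1 group correlated at r = 0.996 to 0.998 over the tested probe sets, and arrays of different groups at 0.932 to 0.938. The upper quartile of log2 intensity was 6.92 on uninduced replicate 3 while the other 5 arrays lay between 7.11 and 7.18. Of 7 myeloid marker genes with a probe set, 5 (LYZ, ELANE, AZU1, PRTN3 and CTSG) were above the filter on all arrays. All 5 were called lower in induced samples, by 1.80-fold (LYZ) to 9.90-fold (PRTN3). The other 2 (MPO and FCGR1A) were below the filter on all arrays. Of 6 markers of other lineages, 5 were below the filter on all arrays and COL1A1 stood at 8.26 and 7.71. The GAPDH control probe sets differed between the 3′ and 5′ ends by 0.50 ± 0.03 (log2, SD, n = 3) in uninduced and 0.58 ± 0.03 in induced samples (two-sided exact permutation p = 0.1, the smallest that 3 against 3 can give). For the ACTB control probe sets this difference was 1.25 ± 0.08 in uninduced and 1.41 ± 0.10 in induced samples (same permutation test, p = 0.2). The part of these differences in the results was not tested. The probe set for ZBTB16, the gene of PLZF, stood at 5.25 ± 0.21 and 3.29 ± 0.59 (limma, adjusted p = 0.000812). Its induced mean lies under the filter, which it passed through the uninduced arrays, so its test is not independent of that selection. The probe set for RARA stood at 5.27 ± 0.23 and 5.05 ± 0.04 (limma, adjusted p = 0.133). Where these probe sets lie relative to the fused parts is not given in the sources used here, so they check nothing about the fusion transcript.

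Amino acid synthesis genes were the most uniformly lower class. All 7 that passed the filter fell in induced samples (100%, against 30.7% of all tested genes), with a median log2 difference of -1.27. CTH, which makes cysteine, fell 5.76-fold. ATF4 itself fell 1.64-fold, and TRIB3, DDIT4 and CHAC1, which it is known to drive, fell further. Other members fell less than ATF4: ATF5 1.44-fold, VLDLR 1.39-fold, SESN2 1.35-fold, PHGDH 1.31-fold and PSPH 1.22-fold. Chaperones and degradation genes of the ER moved less and in both directions, with more falls than rises and a median of -0.28. Of 12, 7 fell (58.3%, against 30.7% of all tested genes), 2 rose (16.7%, against 35.8%) and 3 were not called. The 7 members that rose were ATF3, the sensors EIF2AK3 and ATF6, the subunits PPP1R15A and PPP1R15B that direct eIF2α dephosphorylation, and the ER genes EDEM1 and ERO1A. Of these, ATF3, EIF2AK3, PPP1R15A and EDEM1 kept the call under every alternative in which they were measured, and ATF6 was called lower on another probe set.

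Of the 39 members, 33 passed the filter (log2 intensity above 4 on at least 3 of the 6 arrays) and were tested with limma, with p adjusted over all 20552 tested probe sets and a call at adjusted p under 0.05. Members that rose numbered 7, against 35.8% of all 9834 tested genes, and 22 fell, against 30.7%. Among the 22, CHAC1 passed the filter only through the uninduced arrays. Leaving out uninduced replicate 1, uninduced replicate 2 or induced replicate 3 left 4 members higher. The groups did not overlap for 31 members, against 74.4% of genes. A rise of at least 2-fold was seen in 2 members (ATF3 and PPP1R15A), against 10.8% of genes, and a fall of at least 2-fold in 9 members, against 8.83%. The median difference over the 33 members was -0.42, and over all tested genes 0.02. The 4 members not called were ERN1, CALR, MANF and SEL1L. The other 5 members with a probe set (DDIT3, STC2, NUPR1, PYCR1 and WFS1) were below the filter on all 6 arrays, so they have no test. The plot of members on each array shows these values.

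**Figure D1:**
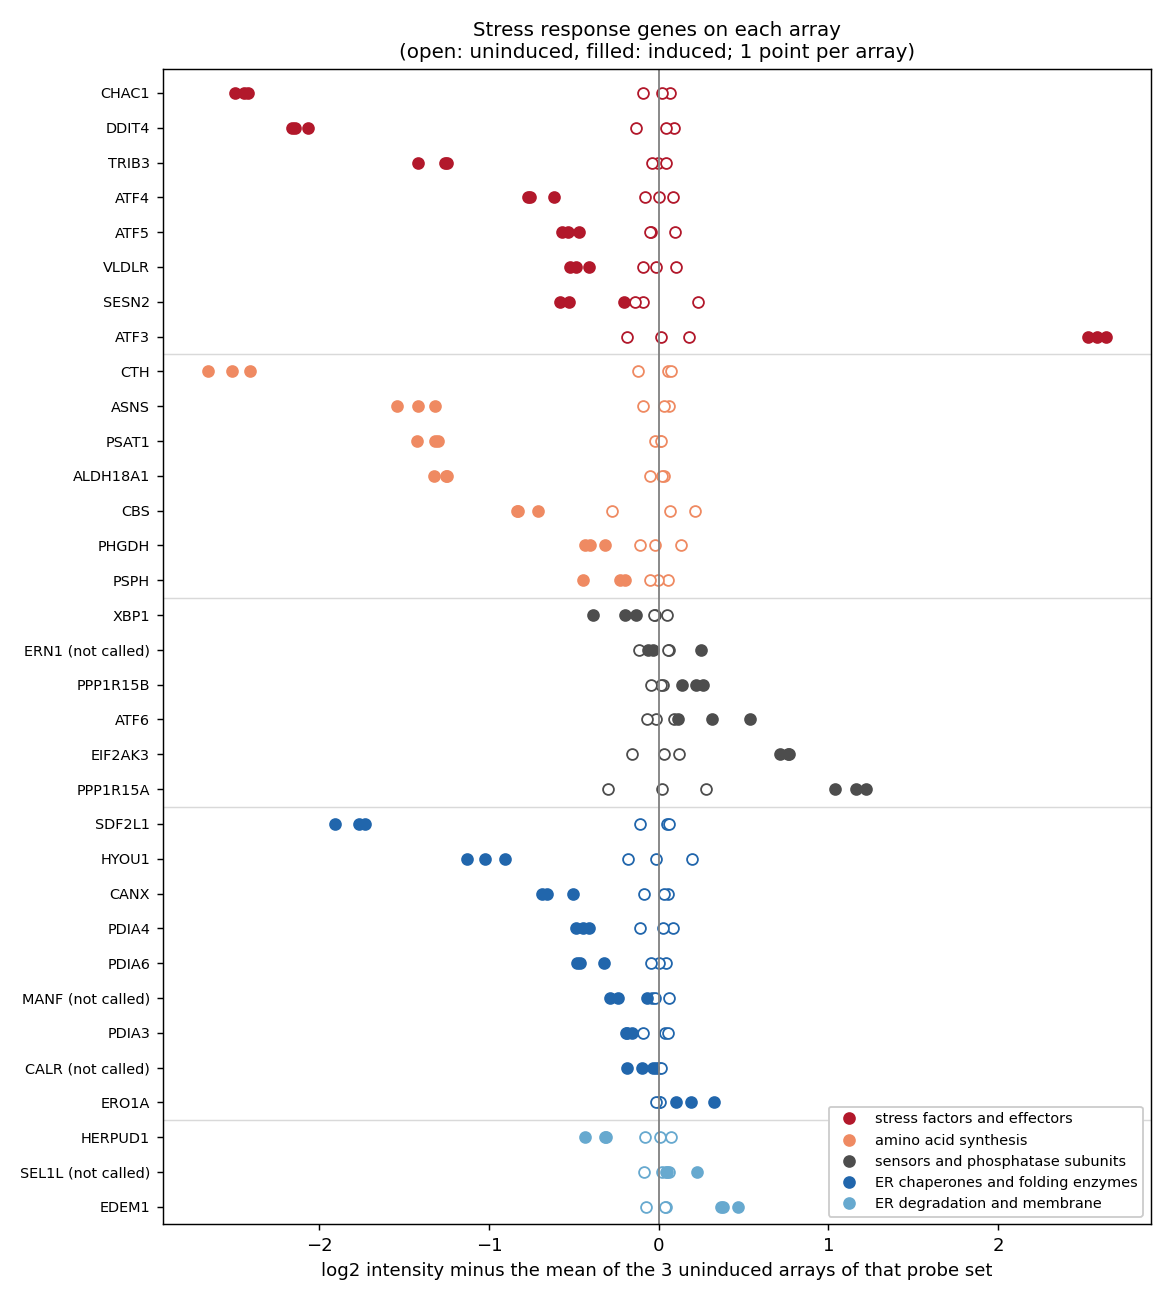
Log2 intensity of each tested member on each of the 6 arrays (x axis) as its difference from the mean of the 3 uninduced arrays, 1 point per array, open for uninduced and filled for induced. Filled points lie left of the open ones for all 7 amino acid synthesis genes, and to the right for ATF3 and EIF2AK3.

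Short stretches upstream of 8 members are shown because they hold the letters of elements known for these pathways, which lets a reader see what members of different classes carry. The elements were searched on both strands of 300-base windows, 250 bases before to 50 after each annotated start, from RefSeq on GRCh38.p14; 35 members had a window (not NUPR1, PSPH, PYCR1 or PDIA3), and a gene with several starts has several. The amino acid response element CARE was searched as TGATGNAAN, the ER stress element ERSE as CCAAT, 9 bases of any kind, then CCACG, its variant ERSE-II as ATTGG, 1 base of any kind, then CCACG, and the unfolded protein response element UPRE as TGACGTGG. Capitals mark the match and lower case the 30 bases on either side; for CANX and PDIA6 only the match is shown.
CHAC1: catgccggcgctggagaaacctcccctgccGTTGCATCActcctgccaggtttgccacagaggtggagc
ATF3: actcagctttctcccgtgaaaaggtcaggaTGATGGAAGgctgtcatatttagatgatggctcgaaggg
ASNS: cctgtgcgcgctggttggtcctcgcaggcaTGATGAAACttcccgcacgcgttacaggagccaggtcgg
ALDH18A1: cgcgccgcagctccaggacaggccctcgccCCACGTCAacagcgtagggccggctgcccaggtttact
SDF2L1: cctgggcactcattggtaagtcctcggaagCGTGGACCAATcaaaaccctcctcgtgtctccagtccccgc
HYOU1: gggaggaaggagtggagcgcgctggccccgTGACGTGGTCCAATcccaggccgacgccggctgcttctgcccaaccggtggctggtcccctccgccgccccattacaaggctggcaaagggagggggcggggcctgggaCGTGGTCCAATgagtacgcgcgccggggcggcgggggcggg
CANX: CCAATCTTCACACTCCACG
PDIA6: CCAATGAGCCGCAGCCACG
In the order printed, the stretches are chr15:40953231-40953299 (plus strand), chr1:212565186-212565254 (plus), chr7:97872438-97872506 (minus), chr10:95656734-95656801 (minus), chr22:21642084-21642154 (plus), chr11:119057244-119057423 (minus), chr5:179698778-179698796 (plus) and chr2:10812853-10812871 (minus), each written 5′ to 3′ on the gene's strand. CHAC1, ATF3 and ASNS carry CARE, on the opposite strand in CHAC1. ALDH18A1 carries UPRE and SDF2L1 carries ERSE-II, both on the opposite strand. HYOU1 carries UPRE overlapping one ERSE-II and a further ERSE-II nearer the start, and CANX and PDIA6 carry ERSE. ATF3, ASNS, CANX and PDIA6 have several annotated starts, and the match is printed from the window of 1 of them. Each match was recorded once, so whether it also lies in the window of another start is not given here.

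Counted by gene, CARE was in 5 of the 35 members searched (ATF3, CHAC1, ASNS, PPP1R15B and HERPUD1; 14.3%) and in 1215 of 27305 genes (4.45%). ERSE was in 4 members (XBP1, CALR, CANX and PDIA6; 11.4%) and in 25 genes (0.0916%). ERSE-II was in 3 members (SDF2L1, HYOU1 and HERPUD1; 8.57%) and in 19 genes (0.0696%). UPRE was in 2 members (ALDH18A1 and HYOU1; 5.71%) and in 253 genes (0.927%). These members were chosen by pathway, and elements of this kind were defined on such genes, so the shares are a description. The cyclic AMP element TGACGTCA was in PPP1R15A alone (2.86%) and in 614 genes (2.25%). Of 8159 tested genes with a window, 2.70% had CARE, 0.172% ERSE, 0.159% ERSE-II and 1.21% UPRE. The cyclic AMP element was in 3.89% of these tested genes, more than its share of members. A match to CARE did not come with 1 direction. Among 220 tested genes with it, 75 fell (34.1%, against 30.7% of all tested genes) and 79 rose, where 35.8% of all tested genes rose. Their median difference was 0.00. Among the members with CARE, CHAC1, ASNS and HERPUD1 fell, and ATF3 and PPP1R15B rose. Of tested genes with ERSE, 7 of 14 fell and 3 rose, and with ERSE-II, 5 of 13 fell and 4 rose. With UPRE, 21 of 99 fell and 43 rose, and with the cyclic AMP element, 103 of 317 fell and 96 rose. A match is a description of the letters, not a site in use.

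Amino acid synthesis enzymes convert intermediates of glycolysis, glutamate and methionine to amino acids. CTH, which makes cysteine from cystathionine, stood at 10.51, 10.68 and 10.70 (log2) in uninduced and 8.22, 7.97 and 8.12 in induced samples. That difference of -2.53 (SE 0.09, 5.76-fold, adjusted p = 1.88e-06) was the widest among the amino acid enzymes, and the groups were far apart. ASNS, which makes asparagine and whose CARE is printed above, read 11.72, 11.69 and 11.56 against 10.24, 10.34 and 10.11, a fall of 2.69-fold (adjusted p = 1.1e-05). PSAT1, the transaminase of serine synthesis, read 13.42, 13.39 and 13.42 against 11.98, 12.09 and 12.11, a fall of 2.55-fold (adjusted p = 4.48e-06). ALDH18A1, which makes the precursor of proline and carries UPRE, read 11.70, 11.68 and 11.61 against 10.41, 10.42 and 10.34, a fall of 2.42-fold (adjusted p = 4.98e-06). These 4 enzymes each fell at least 2-fold with no overlap.

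The other members of serine and cysteine synthesis fell less. CBS, which condenses homocysteine and serine a step before CTH, read 7.98, 7.83 and 7.49 against 6.93, 7.06 and 6.94, a fall of 1.73-fold (adjusted p = 0.00136). PHGDH, the first enzyme of serine synthesis, read 11.43, 11.27 and 11.19 against 10.86, 10.98 and 10.89, a fall of 1.31-fold (adjusted p = 0.00495). In PHGDH the lowest uninduced array lay above the highest induced one by a narrow margin. PSPH, the last enzyme of serine synthesis, fell 1.22-fold from 12.83 ± 0.05 to 12.54 ± 0.13 (adjusted p = 0.0187); without uninduced replicate 1 its adjusted p was 0.0618. So within the serine route the middle enzyme PSAT1 fell more than the enzymes before and after it, a difference that was not tested. PSPH and CBS each have a near-identical copy in the genome that these probes could also bind, so their values are uncertain. PYCR1, the last enzyme of proline synthesis, was below the filter on every array.

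Among stress factors and effectors, 7 of 8 tested members fell (87.5%, against 30.7% of all tested genes). ATF4 read 13.03, 12.95 and 12.87 in uninduced and 12.18, 12.33 and 12.19 in induced samples, a difference of -0.71 (SE 0.07, 1.64-fold, adjusted p = 0.000167). It was the brightest member of its class, and the array reads its transcript, not the translation through which it is mainly known to be set. ATF5, a relative that is controlled in the same way, read 9.82, 9.96 and 9.81 against 9.29, 9.39 and 9.33, a fall of 1.44-fold (adjusted p = 0.000524). ATF3, a repressor and early stress gene downstream of ATF4, went the other way. It read 6.35, 6.52 and 6.16 in uninduced and 8.98, 8.93 and 8.87 in induced samples, a rise of 5.99-fold (difference 2.58, SE 0.10, adjusted p = 2.43e-06). It was the only member of its class that rose, and it rose most among all tested members. DDIT3, the death-promoting factor CHOP, read 3.46, 3.78 and 3.86 against 3.17, 3.39 and 3.42. All 6 values lie under the filter, so neither a fold nor a test is given.

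The effectors below ATF4 had some of the widest falls. CHAC1, which breaks down glutathione, read 5.51, 5.67 and 5.62 in uninduced and 3.10, 3.16 and 3.18 in induced samples. The induced values lie under the filter, so the fall is given as at least 3.03-fold (adjusted p = 6.92e-07). CHAC1 passed the filter only through the uninduced arrays, where it was higher, so its test is not independent of that selection. DDIT4, an inhibitor of the growth kinase mTORC1, read 11.52, 11.48 and 11.30 against 9.37, 9.27 and 9.29, a fall of 4.35-fold (adjusted p = 2.12e-06). TRIB3, a pseudokinase that restrains ATF4, read 9.38, 9.42 and 9.34 against 7.96, 8.12 and 8.13, a fall of 2.48-fold (adjusted p = 8.59e-06). For these 3 genes every induced array lay more than 1 log2 unit below every uninduced one. VLDLR, a lipoprotein receptor, read 8.86, 8.98 and 8.79 against 8.36, 8.47 and 8.39, a fall of 1.39-fold (adjusted p = 0.00114). SESN2, a leucine sensor that also restrains mTORC1, read 6.89, 7.21 and 6.83 against 6.40, 6.45 and 6.77, a fall of 1.35-fold (adjusted p = 0.029). SESN2 had the narrowest gap of the class, and its adjusted p was 0.0772 without uninduced replicate 2, 0.094 without induced replicate 1, 0.0895 without induced replicate 2 and 0.115 with no filter. STC2, a secreted glycoprotein, and NUPR1, a chromatin protein induced by stress, were below the filter.

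**Figure D2:**
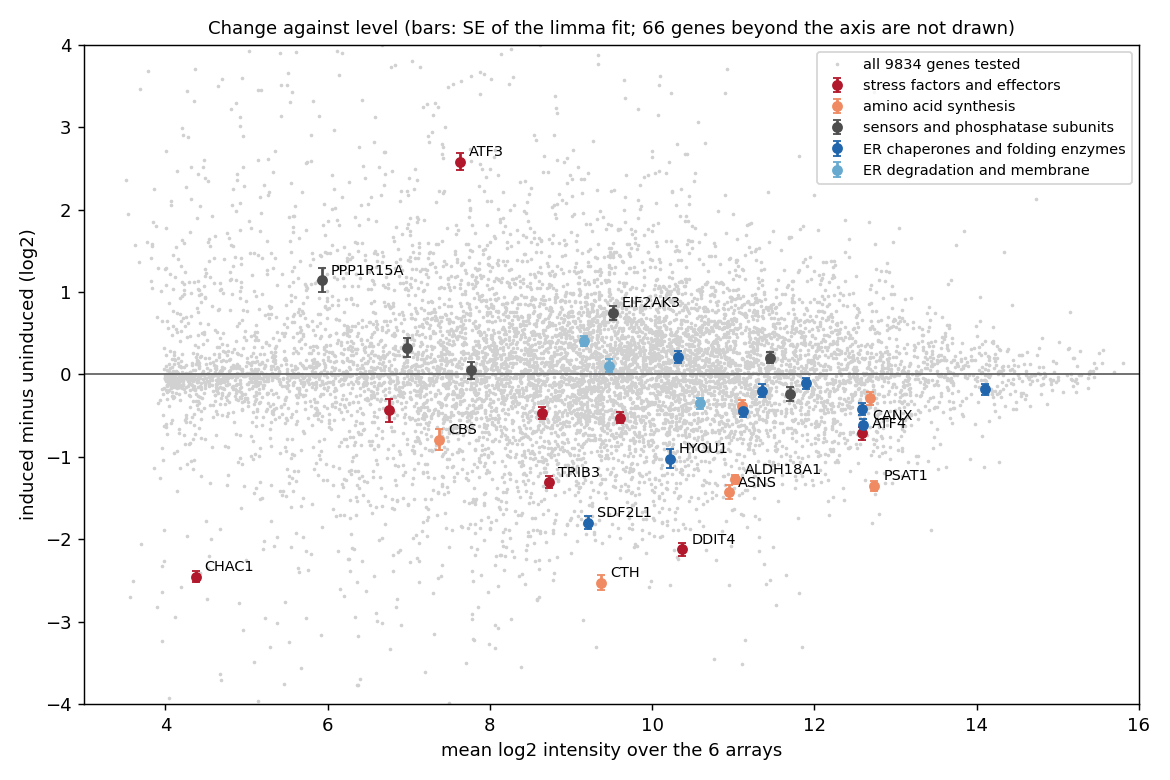
Induced minus uninduced log2 intensity (y axis, bars are the SE of the limma fit) against the mean log2 intensity over the 6 arrays (x axis); grey points are all tested genes and coloured points the members by class. The amino acid genes lie below 0 across their levels, and ATF3 is the member farthest above 0; 66 genes beyond the axis limit of 4 are not drawn.

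Of 6 sensors and phosphatase subunits, 4 rose (66.7%, against 35.8% of all tested genes). EIF2AK3 and PPP1R15A kept that call under every alternative, and PPP1R15B and ATF6 did not. EIF2AK3, the ER kinase PERK that phosphorylates eIF2α, read 9.27, 9.18 and 8.99 in uninduced and 9.91, 9.86 and 9.91 in induced samples, a rise of 1.68-fold (difference 0.75, SE 0.08, adjusted p = 0.000228). PPP1R15A, the inducible subunit GADD34 that directs a phosphatase to eIF2α, read 5.64, 5.38 and 5.06 against 6.52, 6.58 and 6.40, a rise of 2.21-fold (adjusted p = 0.000442). PPP1R15B, the constitutive counterpart, rose 1.15-fold from 11.36 ± 0.04 to 11.56 ± 0.06 (adjusted p = 0.0254). The kinase that starts this branch and both subunits that end it were thus higher, PPP1R15B by little. The call for PPP1R15B was lost on leaving out uninduced replicate 1, uninduced replicate 2, induced replicate 1 or induced replicate 3; over all alternatives its adjusted p ran from 0.00718 to 0.0993.

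The other 3 members of the class differed by less than 1.3-fold. ERN1, the kinase and nuclease IRE1 that splices XBP1, read 7.80, 7.80 and 7.63 against 7.71, 7.99 and 7.68. The groups overlapped, and the difference of 0.05 (95% confidence interval -0.20 to 0.30) was not called (adjusted p = 0.696). XBP1, the factor made active by that splicing, read 11.80, 11.79 and 11.87 against 11.43, 11.68 and 11.62, a fall of 1.18-fold (adjusted p = 0.0369). The array value does not separate spliced from unspliced XBP1. Its adjusted p exceeded the threshold on leaving out any 1 array except induced replicate 2, and ran from 0.0161 to 0.112 over all alternatives. ATF6, a membrane-bound factor released by proteolysis, read 6.80, 6.91 and 6.75 against 6.94, 7.36 and 7.14 on its brightest probe set, a rise of 1.25-fold (adjusted p = 0.0419). Its other tested probe sets gave -0.25 (adjusted p = 0.0389, called lower) and -0.025 (adjusted p = 0.724), so the direction depends on the probe set. The ATF6 call was kept on leaving out induced replicate 1 and lost on leaving out any other array, and its adjusted p ran from 0.0128 to 0.829.

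Chaperones and folding enzymes of the ER were led by SDF2L1, a cofactor of ER chaperone complexes with ERSE-II in its printed stretch. It read 10.17, 10.17 and 10.00 in uninduced and 8.21, 8.35 and 8.38 in induced samples, a fall of 3.48-fold (difference -1.80, SE 0.08, adjusted p = 4.04e-06). HYOU1, an ER chaperone of the HSP70 superfamily with UPRE and ERSE-II matches, read 10.92, 10.71 and 10.55 against 9.60, 9.71 and 9.82, a fall of 2.03-fold (adjusted p = 0.000197). These were the only ER members that fell at least 2-fold. CANX, the membrane lectin chaperone calnexin, read 12.96, 12.94 and 12.82 against 12.21, 12.40 and 12.25, a fall of 1.53-fold (adjusted p = 0.000397). PDIA4, a protein disulfide isomerase, read 11.42, 11.37 and 11.23 against 10.89, 10.93 and 10.85, a fall of 1.36-fold (adjusted p = 0.00125). PDIA6, of the same family, read 12.84, 12.80 and 12.76 against 12.32, 12.48 and 12.34, a fall of 1.34-fold (adjusted p = 0.00149), with a log2 difference of -0.42 that was -0.22 without _x_at and _s_at probe sets. For CANX, PDIA4 and PDIA6 no induced array reached an uninduced one.

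The remaining folding members moved by less than 1.2-fold on their brightest probe set. PDIA3, the isomerase that works with calnexin and calreticulin, fell 1.13-fold from 14.20 ± 0.08 to 14.02 ± 0.02 (adjusted p = 0.044). Leaving out any 1 array except uninduced replicate 3 raised that p above the threshold, to at most 0.138. ERO1A, the oxidase that recharges these isomerases, rose 1.15-fold from 10.21 ± 0.01 to 10.42 ± 0.11 (adjusted p = 0.0431). The ERO1A call was kept without induced replicate 2 and lost without any other array, and leaving out probe sets with suffix _s_at or _x_at turned its difference to -0.047 (adjusted p = 0.607). MANF, a secreted ER stress protein, stood at 11.45 ± 0.05 and 11.26 ± 0.12, with a difference of -0.20 (95% confidence interval -0.38 to -0.01) that was not called (adjusted p = 0.0606) but passed without induced replicate 2 (adjusted p = 0.0204). CALR, the soluble lectin chaperone calreticulin, stood at 11.95 ± 0.02 and 11.84 ± 0.08, with an interval for the difference of -0.26 to 0.04. CALR was not called on its brightest probe set (adjusted p = 0.18) and fell on another (-0.34, adjusted p = 0.00539).

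Degradation genes of the ER had no shared direction. HERPUD1, a membrane scaffold of the ubiquitin ligase complex, read 10.84, 10.78 and 10.69 in uninduced and 10.46, 10.34 and 10.45 in induced samples, a fall of 1.28-fold (adjusted p = 0.00383). EDEM1, a lectin that marks misfolded glycoproteins for removal, read 9.003, 8.995 and 8.884 against 9.33, 9.43 and 9.34, a rise of 1.32-fold (adjusted p = 0.00146). Each of these groups was separate, in opposite directions. SEL1L, the adaptor of the ligase SYVN1, stood at 9.41 ± 0.08 and 9.52 ± 0.10 with overlapping groups; the difference of 0.11 (95% confidence interval -0.08 to 0.29) was not called (adjusted p = 0.271). Another SEL1L probe set was lower (-0.33, adjusted p = 0.0369). WFS1, an ER membrane protein, was below the filter.

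The values per array show how the classes stand beside each other. For amino acid synthesis the median deviation from the uninduced mean was 0.05, 0.02 and -0.05 on the uninduced arrays and -1.25, -1.25 and -1.30 on the induced ones. For the ER classes together it was 0.05, 0.02 and -0.08 against -0.30, -0.24 and -0.28. All tested genes gave 0.04, 0.04 and -0.09 against 0.02, 0.03 and 0.00. The median deviation of amino acid genes was thus about 1 log2 unit lower than that of ER genes on each induced array. This is a gap in the fall, not in the level: median induced levels were 10.39 and 10.65. Falls of at least 2-fold numbered 4 of 7 amino acid genes and 2 of 12 ER genes, against 8.83% of all tested genes. The difference between the classes was not tested, since the members were chosen with results known.

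Members with several probe sets were mostly of one direction. Of 61 tested member probe sets, 41 fell, 8 rose and 12 were not called, and of 13 members with more than 1 called probe set only ATF6 was called both ways. All 12 amino acid probe sets fell, among them second probe sets of CTH (-3.36) and PSAT1 (-1.88). Of 26 ER probe sets, 18 fell, 2 rose and 6 were not called. The other 3 CANX probe sets fell by 0.89 to 1.04 on the log2 scale, more than the brightest one. For PDIA3 the other probe sets gave -0.54 and -0.52, about 3 times its brightest. The brightest probe set therefore gave the smallest fall for these 2 chaperone genes.

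**Figure D3:**
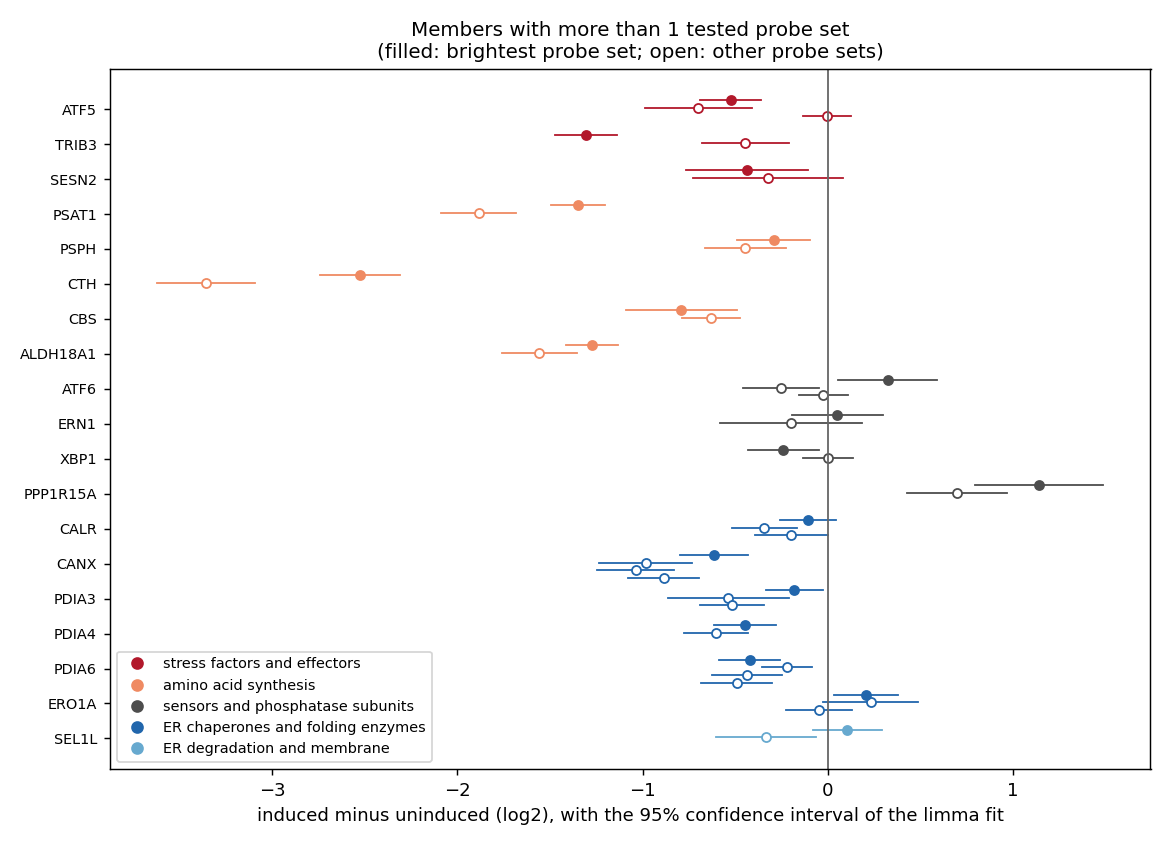
Induced minus uninduced log2 intensity (x axis, bars are the 95% confidence interval of the limma fit) for the 19 members with more than 1 tested probe set, filled for the brightest probe set and open for the others. The probe sets of ATF6 lie on both sides of 0, and those of CTH, PSAT1 and CANX all lie below it.

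Other genes of the pathways came from 7 lists of 154 genes made by function, of which 139 were tested. The lists were made with earlier results of these data known, so their shares are a description and not independent evidence. In the list of eIF2α kinases, eIF2, eIF2B and ATF4 partners, 11 of 18 fell (61.1%, against 30.7% of all tested genes). Rises numbered 3 (16.7%, against 35.8%), and the median was -0.35. CEBPB, a dimer partner of ATF4, fell 3.36-fold from 12.67 ± 0.12 to 10.92 ± 0.08 (adjusted p = 5.31e-06). EIF2B3, a subunit of the exchange factor that recharges eIF2, fell 2.44-fold. GCN1, which couples stalled ribosomes to the amino acid sensing kinase, fell 1.84-fold. EIF2AK2, the kinase activated by double-stranded RNA, rose 1.58-fold. The phosphatase catalytic subunits PPP1CA and PPP1CB, which the PPP1R15 proteins direct, rose 1.47-fold and 1.30-fold.

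Both lists of other amino acid genes had more genes that fell than rose. Of 20 tested genes of amino acid uptake and tRNA charging, 17 fell (85%, against 30.7% of all tested genes). Rises numbered 2 (10%, against 35.8%), and the median was -0.90. WARS1, which charges tryptophan tRNA, fell 3.01-fold from 10.01 ± 0.07 to 8.42 ± 0.03 (adjusted p = 2.88e-06). XPOT, the exporter of tRNA from the nucleus, and LARS1, which charges leucine tRNA, fell 1.98-fold and 1.97-fold. SLC38A2, a transporter of small neutral amino acids, rose 1.46-fold, and SLC1A4, a transporter of alanine and serine, rose 1.21-fold. SLC1A4 lost its call without uninduced replicate 3 (adjusted p = 0.0535), induced replicate 2 (0.0858) or induced replicate 3 (0.0678), and with no filter (0.0678); in the mean of its probe sets the difference was 0.085 (adjusted p = 0.364). Of 16 other amino acid and one-carbon enzymes, 13 fell (81.25%) and 1 rose (6.25%), with a median of -0.58. ASS1, an enzyme of arginine synthesis, fell 4.28-fold, BCAT2, a branched-chain transaminase, 2.29-fold, and AHCY, which makes homocysteine, 2.21-fold. GLUL, which makes glutamine from glutamate, rose 2.80-fold from 13.60 ± 0.06 to 15.08 ± 0.04 (adjusted p = 3.16e-06). The size of the GLUL rise depended on the probe set: the log2 difference was 1.48 here, 2.87 in the mean of its tested probe sets and 4.99 without _x_at and _s_at probe sets. Pooled, 30 of 36 genes of these lists fell (83.3%, against 30.7% of all tested genes) and 3 rose (8.33%, against 35.8%).

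The lists of ER genes were more mixed. Pooled over 3 lists, 28 of 71 genes fell (39.4%, against 30.7% of all tested genes). Rises numbered 14 (19.7%, against 35.8%), and the median was -0.10. In folding and glycoprotein quality control, 14 of 27 fell (51.9%) and 3 rose (11.1%). HSPA5, the master ER chaperone BiP, fell 1.85-fold from 13.91 ± 0.05 to 13.02 ± 0.03 (adjusted p = 2.04e-05). CNPY2, an ER resident protein, fell 1.71-fold, and LMAN1, a cargo receptor for glycoproteins, 1.56-fold. ERO1B, the paralogue of ERO1A, rose 2.11-fold from 4.84 ± 0.09 to 5.92 ± 0.08, near the filter. HSPA13, an HSP70 relative of the microsomes, rose 1.60-fold, and DNAJC3, a cochaperone of BiP, rose 1.46-fold on its brightest probe set but not in the mean of its probe sets (adjusted p = 0.464).

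In ER degradation and extraction, 7 of 23 fell and 7 rose (30.4% each), near the shares of all tested genes (30.7% lower, 35.8% higher). The median was 0.05, and -0.0079 after quantile normalization. Without _x_at and _s_at probe sets, 3 of 15 fell and 7 rose, and the median was 0.29. UBE2G2, the ubiquitin conjugating enzyme of this route, fell 1.78-fold, EDEM2, a mannosidase that starts glycoprotein disposal, 1.63-fold, and AUP1, a membrane recruiter of UBE2G2, 1.30-fold. HERPUD2, a paralogue of HERPUD1, rose 1.97-fold, DERL2, a channel component, 1.75-fold, and ERLEC1, a lectin, 1.58-fold. In the mean of a gene's probe sets the log2 difference was -1.34 for UBE2G2 and 0.42 for ERLEC1. HERPUD1 and HERPUD2 were therefore called in opposite directions.

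In translocon and signal peptide processing, 7 of 21 fell (33.3%, against 30.7% of all tested genes) and 4 rose (19.0%, against 35.8%), with a median of -0.08. That median was -0.028 without uninduced replicate 1, -0.031 without induced replicate 1, -0.14 without uninduced replicate 3 and -0.0077 without _x_at and _s_at probe sets. SRPRB, a subunit of the receptor for ribosomes bound for the ER, fell 2.83-fold. SEC11C, a signal peptidase subunit, fell 1.56-fold, and SSR3, of the translocon-associated complex, 1.49-fold, with SSR3 not called when probe sets of suffix _x_at and _s_at were left out (adjusted p = 0.375). SRP54, a subunit of the signal recognition particle, rose 1.51-fold, SPCS1, of the signal peptidase complex, 1.35-fold, and SRP14, of the same particle as SRP54, 1.16-fold. SRP14 lost its call in 5 of the 6 fits that left out 1 array, all but that without uninduced replicate 1; its adjusted p was at most 0.0889. The higher count here was 2 after median centring and without uninduced replicate 2, uninduced replicate 3 or any 1 induced array.

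Of 14 other ER stress transducers, 6 rose (42.9%, against 35.8% of all tested genes) and 2 fell (14.3%, against 30.7%), with a median of 0.17. In the mean of each gene's probe sets, 6 rose and 4 fell, with a median of 0.054. CASP4, an inflammatory caspase placed at the ER, rose 2.63-fold from 9.88 ± 0.07 to 11.27 ± 0.09 (adjusted p = 7.95e-06). MAP3K5, a stress kinase downstream of ERN1, rose 1.34-fold, and CREB3L4, a membrane-bound factor related to ATF6, 1.44-fold. RTCB, the ligase that joins XBP1 after splicing, fell 1.55-fold, and BAK1, a cell death effector that also binds ERN1, fell 1.48-fold. The plot of classes and lists sets these groups side by side.

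**Figure D4:**
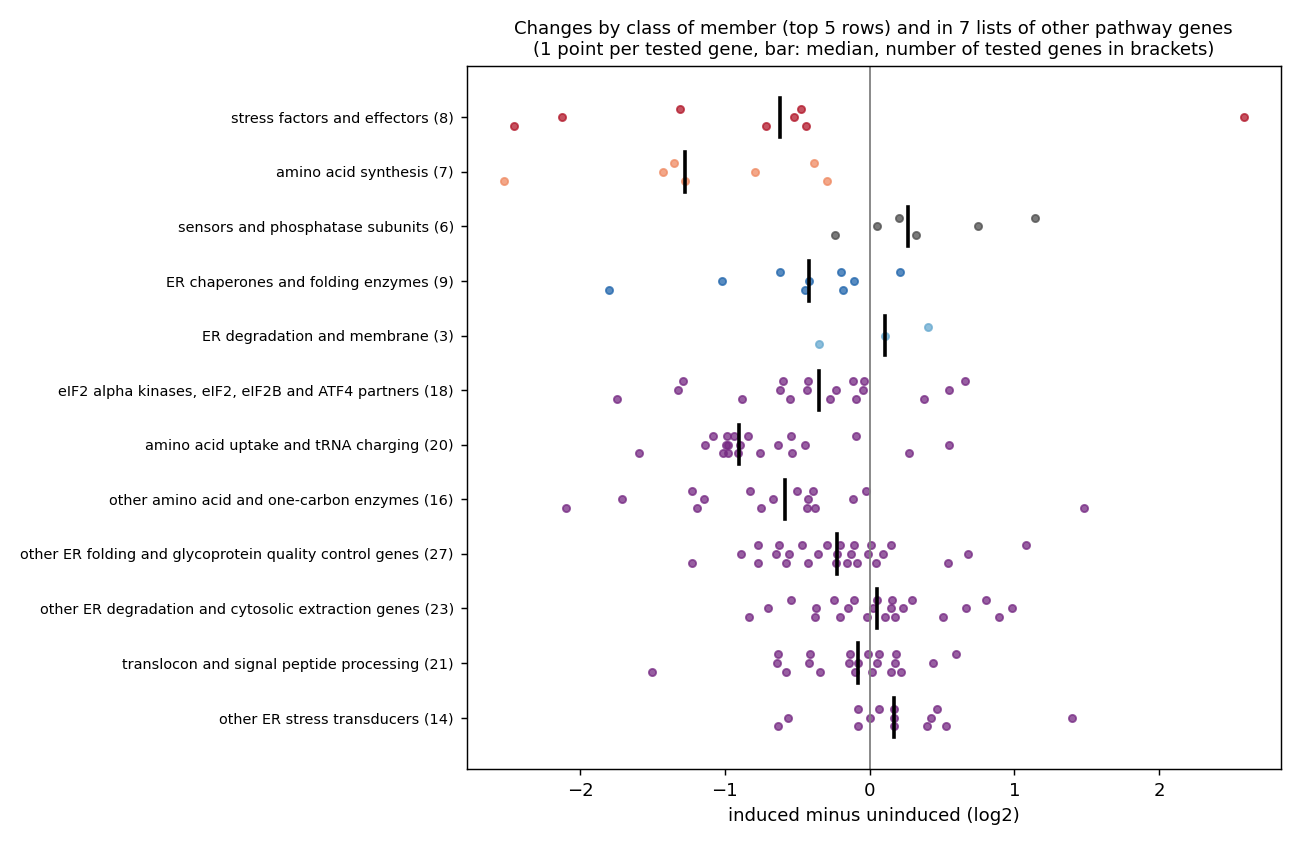
Induced minus uninduced log2 intensity (x axis), 1 point per tested gene and a bar at each median, for the 5 classes of members and the 7 lists of other pathway genes. Medians lie at -1.27 for amino acid synthesis and -0.90 for uptake and tRNA charging, and between -0.42 and 0.17 for ER folding, degradation, translocon and other transducer genes.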

How the data were processed

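Total RNA of 6 samples was labelled with biotin and hybridised to 54675-probe-set arrays, 1 sample per array. The authors deposited 1 linear intensity per probe set and array, which GCRMA produced, per the submitters' processing notes. No version of it, and no word on whether arrays were normalized together, is given in the sources used here. GCRMA sets low signals near a floor, so differences of dim genes are uncertain. The deposited values ran from 0.914 to 122290; 6 values under 1 were set to 1 before log2 was taken. After 62 controls were left out, probe sets were filtered and tested whatever their annotation. Genes were read only from probe sets whose platform annotation named 1 gene (41091, while 1801 named several and 11721 none). Probe sets above log2 4 (intensity 16) on at least 3 arrays were tested with limma 3.58.1 (R 4.3.3), two-sided, with Benjamini-Hochberg adjustment; the fit was tested on simulated data. Fold changes are antilogs of the differences between group means of log2 intensity; where all values of 1 group lay under the filter, the fold is against that filter and is written "at least". The number of arrays limits precision.

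Values on every array are given for ATF4, ATF3, DDIT3, ATF6, ERN1, EIF2AK3, XBP1 and the 20 other tested members with the largest difference; of each list, up to 3 called genes per direction with the smallest adjusted p; promoters, up to 8 by adjusted p. The members and lists were chosen with earlier results of these data known. Alternatives were other filters, normalizations, variance models, weights per array, a block for the replicate number, other choices of probe set, no floor, and each array left out. Motifs and figures were made with Python 3.11.15 and matplotlib 3.10.9.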

Additional observations from a re-analysis of the deposited data

How the results depend on the processing

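Of the 29 members called, 22 kept their call under every one of the 16 alternatives in which they were measured (4 higher, 18 lower); SESN2, PSPH, ATF6, XBP1, PPP1R15B, PDIA3 and ERO1A lost it in at least 1, and CALR and MANF gained one in some. CHAC1, among the 18 lower, was measured in only 12 of the 16 alternatives. Leaving out each array in turn gave 4 to 6 members higher and an ER median of -0.31 to -0.24. With no filter, the medians were -1.03 for amino acid and -0.20 for ER genes. These medians take in PYCR1 and WFS1, which were below the filter on every array and differed little between groups. Array weights gave -1.31 for amino acid genes. When the tested probe sets of each gene were averaged, they were -1.42 and -0.37. Without _x_at and _s_at probe sets, 22 members were measured and 14 fell, the medians were -0.63 (5 genes) and -0.21 (8 genes), and ERO1A turned to -0.047; fewer genes are measured there. Quantile normalization moved the median of all genes to -0.05 and turned the split over all genes from 3518 higher and 3019 lower to 3444 and 3979. In a fit with replicate numbers as the block, 5 members were higher and 21 lower, with 7 amino acid and 6 ER genes lower; PPP1R15B (adjusted p = 0.0584), PDIA3 (0.072) and ERO1A (0.0646) were not called. Same-numbered samples correlated in their deviations at -0.17, 0.00 and 0.18, and only those of replicate 3 correlated best with their own number, so the numbers were not taken as pairs. Of 38 other pathway genes named, 34 kept their call throughout.

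Signal over background limits CHAC1 in induced samples and DDIT3, STC2, NUPR1, PYCR1 and WFS1 in all, for which a change below the filter was not detectable. Calls near the threshold rest on 3 arrays per group. An array reads transcript level only, so neither translation of ATF4 nor splicing of XBP1 was measured.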
